A study of Mus musculus with 2 samples.

Results

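The RNA described here is the long end of 2 small RNA libraries from fetal mouse testes, that is, every distinct sequence of 34 to 48 nt. These sequences were chosen by length alone, and each was then assigned to an RNA class by exact match to the transcripts of GENCODE release M21, or left without a match. There were 87180 such sequences among the 1132769 of the series, 73393 of them found in WT, 25862 in KO and 12075 in each of the 2 libraries. One library came from WT testes and one from Hsp90α KO testes of C57BL/6 mice, each from 20 pooled testes at embryonic day 16.5 (E16.5) after natural mating. Whole testes were used, so germ cells and somatic cells contributed RNA, and in pooled bulk RNA fewer cells of a type and less RNA per cell cannot be told apart. Total RNA was extracted with Isogen, made into libraries with the TruSeq Small RNA kit and sequenced in 50-bp single reads on a MiSeq. WT and KO below mean the libraries carrying those labels.

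PIWI-interacting RNAs (piRNAs) are the small RNAs that fetal male germ cells use against transposons, and they typically start with uracil, read here as T. Fragments of abundant RNAs of the cell are found beside them in small RNA libraries. Ribosomal RNAs form the core of the ribosome, transfer RNAs (tRNAs) carry amino acids and receive the letters CCA at their 3′ end after transcription, and small nucleolar RNAs (snoRNAs) guide the modification of other RNAs. HSP90α, encoded by Hsp90aa1, is a chaperone that stabilizes its client proteins.

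Sequencing depth was 6409305 reads in WT and 5589326 in KO, of which 2523084 and 2561491 lay in miRNA hairpins. All KO/WT ratios below are normalized to these miRNA-hairpin reads, and their 95% Clopper-Pearson intervals, given in parentheses, cover counting error only. With 1 library per genotype, every test compares these libraries and not the genotypes, and no difference has a replicate check. Relative to total reads the miRNA-hairpin reads were 1.16 times as frequent in KO, so ratios to total reads are larger by that factor. Sense reads specific to Hsp90aa1 were few, 2 in WT and 10 in KO, all of 24 to 29 nt, a ratio of 4.93 (1.05 to 46.2). The part of the gene that the KO allele lacks is not given in the sources used here, so these reads do not check the labels. Hsp90ab1, which encodes the other cytosolic HSP90, gave 32 WT and 37 KO reads. Of the marker genes, 7 of 8 germ cell genes were detected and Nanos2 was at 0, with 23 reads in WT and 26 in KO for the list. The ratio of the germ cell list was 1.11 (0.611 to 2.04). The 5 Sertoli cell genes gave 58 and 35 reads, a ratio of 0.594 (0.379 to 0.92). Among them Amh had 33 and 17, Gata4 12 and 3, Sox9 5 and 2 and Dhh 2 and 2, while Wt1 went the other way with 6 and 11. The 5 fetal Leydig cell genes gave 12 and 17 (1.4, 0.628 to 3.2), and the 4 erythroid globin genes 7 and 3 (0.422, 0.0704 to 1.85). Of all genes with at least 20 sense reads of 16 to 48 nt, 50.6% were at least 2-fold lower in KO. The part of these differences in the results below was not tested.

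The most abundant long RNAs are shown first, since their letters carry most of what follows. The first set has a single 5′ end and differs in its 3′ end. By general knowledge it is the start of the large 28S ribosomal RNA, for which no reference was used here, and no GENCODE transcript held it. Capitals mark the bases after position 34.
28S-type, 34 nt: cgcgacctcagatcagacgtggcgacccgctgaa
28S-type, 35 nt: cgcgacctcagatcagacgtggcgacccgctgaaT
28S-type, 36 nt: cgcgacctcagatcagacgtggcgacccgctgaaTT
28S-type, 39 nt: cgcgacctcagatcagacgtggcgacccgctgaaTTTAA
28S-type, 40 nt: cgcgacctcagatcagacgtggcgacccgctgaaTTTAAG
28S-type, 41 nt: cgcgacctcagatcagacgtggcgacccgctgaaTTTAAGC
28S-type, 42 nt: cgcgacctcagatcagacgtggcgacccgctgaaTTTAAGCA

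The second set is of tRNA type. The Val sequence is the first 34 nt of n-TVcac9, a tRNA gene at chr13:23446142-23446214 (GRCm38, RefSeq), and the genomic form of the Ser fragment, printed with the T-loop values, is the end of n-TSaga9 (chr4:10874064-10874145) and of other serine tRNA genes with CCA added. The mitochondrial sequence ends mt-Tv, the mitochondrial valine tRNA gene. The amino acids of the others come from general knowledge of mouse tRNAs and were not checked by a match. Capitals mark a 3′ terminal CCA and the T-loop letters GTTCGANTC, the core of the B box of tRNA genes.
Val, 5′ fragment: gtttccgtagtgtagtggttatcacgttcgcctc
Gly, 5′ fragment: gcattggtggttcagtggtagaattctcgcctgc
Lys, 5′ fragment: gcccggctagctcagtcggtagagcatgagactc
Asp, 3′ fragment: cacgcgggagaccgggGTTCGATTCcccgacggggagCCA
Glu, 3′ fragment: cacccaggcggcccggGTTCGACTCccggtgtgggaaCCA
Ser, 3′ fragment: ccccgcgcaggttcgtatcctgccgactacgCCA
mt-Tv, 3′ fragment: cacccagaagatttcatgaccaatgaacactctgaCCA

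Long RNAs were less frequent in KO than in WT in every class. They made up 316436 reads of the WT library, a share of 4.94% (95% Wilson interval 4.92 to 4.95), and 97784 reads of the KO library, a share of 1.75% (1.74 to 1.76). Normalized to miRNA-hairpin reads, the KO/WT ratio was 0.304 (0.302 to 0.307), and to total reads 0.354 (0.352 to 0.357). The RNAs of 24 to 33 nt, the piRNA lengths, had a ratio of 0.675 (0.673 to 0.676), and those of 20 to 23 nt, mainly miRNAs, 0.991 (0.989 to 0.992). The 10 most abundant sequences held 22.2% of the long reads in WT and 26.6% in KO, while sequences read once were 74.6% and 72.9% of the distinct sequences. A class at 0 reads could hold up to 9.48e-04% of the long reads in WT and 0.00307% in KO.

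Most long RNAs had no match. Reads without an exact match were 82.2% of the WT long reads (82.0 to 82.3) and 85.2% of the KO long reads (85.0 to 85.4), against 70.1% and 68.9% of the reads of 24 to 33 nt. Among the reads with a match, snoRNAs and scaRNAs led in WT with 18249 reads, or 5.77%, followed by sense reads of protein-coding genes with 17075, or 5.40%, and ribosomal RNA with 10375, or 3.28%. The same classes led in KO, with 3883, 4365 and 3434 reads. Antisense reads (4500 in WT and 1278 in KO), long noncoding RNA (3962 and 913) and miRNA hairpins (1045 and 308) followed. Pseudogenes gave 308 and 53 reads, mitochondrial ribosomal RNA 273 and 55, small nuclear RNAs (snRNAs) 265 and 108, mitochondrial tRNA 212 and 57, the other structural RNAs 121 and 24, and mitochondrial mRNAs 42 and 13. miRNA hairpins held 10% of the WT reads of 24 to 33 nt but 0.33% of the long WT reads, and snoRNAs and scaRNAs moved the other way, from 0.738% to 5.77%.

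The class shares differed between the libraries by more than counting error in 9 of the 13 classes (Fisher's exact test, two-sided, Benjamini-Hochberg adjusted over 13 classes). The share of snoRNAs and scaRNAs fell from 5.77% in WT to 3.97% in KO (Fisher's exact test, adjusted p = 3.47e-111) and that of protein-coding genes from 5.40% to 4.46% (adjusted p = 7.37e-31). The share without a match rose (Fisher's exact test, adjusted p = 7.61e-108), as did that of ribosomal RNA, from 3.28% to 3.51% (adjusted p = 9.12e-04). For miRNA hairpins the shares were 0.33% and 0.315% (Fisher's exact test, adjusted p = 0.521). When each distinct sequence was counted once, the snoRNA share turned to higher in KO, with an odds ratio of 1.37. By reads, 1 sequence alone held 48% of the WT snoRNA reads.

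The KO/WT ratio of the classes ran from 0.169 (0.124 to 0.227) for pseudogenes to 0.401 (0.318 to 0.504) for snRNAs. It was 0.326 (0.314 to 0.339) for ribosomal RNA, 0.316 (0.313 to 0.318) without a match, 0.29 (0.255 to 0.33) for miRNA hairpins and 0.28 (0.263 to 0.298) for antisense reads. Protein-coding genes had a ratio of 0.252 (0.244 to 0.26), long noncoding RNAs 0.227 (0.211 to 0.244) and snoRNAs and scaRNAs 0.21 (0.202 to 0.217). Every one of the 13 intervals lay below 1. In the reads of 24 to 33 nt the ratios of several of these classes were near 1, with 1.01 (0.912 to 1.11) for snRNAs, 0.914 (0.902 to 0.927) for ribosomal RNA and 0.813 (0.794 to 0.833) for snoRNAs.

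The ratio fell with length. The longest RNAs of piRNA length, 33 nt, had 206306 WT and 103215 KO reads, a ratio of 0.493 (0.489 to 0.496), and the shortest long RNAs, 34 nt, had 75633 and 37431, a ratio of 0.487 (0.481 to 0.494), so the values on both sides of the length limit are close. From there it fell at each added base, to 0.346 (0.34 to 0.353) at 36 nt, 0.22 (0.214 to 0.227) at 38 nt and 0.139 (0.135 to 0.144) at 40 nt, and reached its lowest value, 0.0659 (0.0594 to 0.0729), at 43 nt. The median length of the long reads was 36 nt in WT and 35 nt in KO. The ratios differed among the 15 lengths by more than counting error (chi-square of homogeneity 18477, 14 degrees of freedom). All 13 classes had a lower ratio at 41 to 43 nt than at 34 nt, for example 0.103 against 0.587 in ribosomal RNA, 0.0633 against 0.421 in protein-coding genes and 0.0816 against 0.491 without a match, although the rarest classes had fewer than 5 KO reads at 41 to 43 nt.

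At the longest lengths the ratio rose again, to 0.119 (0.103 to 0.135) at 46 nt, 0.333 (0.297 to 0.374) at 47 nt and 0.513 (0.473 to 0.556) at 48 nt, where WT held 1748 and KO 910 reads. Of the reads of 48 nt, the longest in the tables, 93.7% in WT and 97.4% in KO had no match. Among unmatched reads of 46 to 48 nt, 21.7% in WT and 38.3% in KO belonged to sequences that occurred on both strands, that is, with 24 nt or more of their reverse complement in another long sequence, against 1.69% and 0.866% at 34 to 40 nt. Without all such sequences the ratio was still 0.0779 (0.0671 to 0.0901) at 45 nt and 0.397 (0.358 to 0.44) at 48 nt. The part of RNA or DNA from other organisms in these reads was not tested. Reads of 46 to 48 nt were few, and without them the ratio of all long reads stayed at 0.304.

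The same fall was seen within single 5′ ends, where only the 3′ end differs. The 28S-type family, all unmatched sequences that share its first 15 nt, had 657 sequences with 50338 WT and 20674 KO reads, which was 15.9% and 21.1% of all long reads. Its 34-nt form was the most abundant long sequence of both libraries, with 16679 WT and 10920 KO reads, a ratio of 0.645 (0.629 to 0.661). With 1 base more it had 9191 and 4539 reads (ratio 0.486, 0.469 to 0.504), and at 36 nt 9265 and 3338 (0.355, 0.341 to 0.369). The 39-nt form had 3926 and 392 reads (0.0984, 0.0884 to 0.109) and the 42-nt form 1584 and 128 (0.0796, 0.066 to 0.0954). The intervals of 34, 35, 36 and 39 nt do not overlap, and those of 39 and 42 nt do. Shorter reads of the same start, of 24 to 33 nt, had a ratio of 0.801, and at 24 nt the ratio was 0.994 (0.933 to 1.06).

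Over all 5′ ends, taken as the first 24 nt, 49 had at least 100 reads both at 34 to 36 nt and at 39 to 43 nt. In all 49 the ratio was lower at 39 to 43 nt, with a median of 0.109 (range 0.0477 to 0.202) against 0.416 (0.224 to 0.603) at 34 to 36 nt. Starts that lie next to each other in 1 RNA are among these 49, so they are not independent.

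Letters found in tRNAs were more frequent among unmatched than among matched long reads. Of the unmatched long reads, 7.59% in WT (7.49 to 7.69) and 7.23% in KO (7.05 to 7.41) ended in CCA, against 0.732% and 0.787% of the matched long reads. The letters GTTCGANTC, searched on the strand read, were in 3.90% (3.82 to 3.97) and 3.38% (3.26 to 3.5) of the unmatched reads and in 0.119% and 0.104% of the matched reads (Fisher's exact test between unmatched and matched reads in KO, p = 4.27e-281 for CCA and 4.14e-172 for the motif; smaller in WT). Nuclear tRNAs are not among the GENCODE transcripts, and the mitochondrial tRNAs there lack the added CCA. Exact matching therefore leaves most reads of tRNA 3′ ends without a match. The direction of this difference was thus largely set by the reference, and the tests add nothing to it. Only 13 of the 430 tRNA genes of RefSeq could be read from the sequences at hand.

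At 34 nt the Val, Gly and Lys 5′ fragments lay below the other reads of that length and the Ser 3′ fragment above. The Val family had 7353 WT and 2537 KO reads at 34 nt, a ratio of 0.34 (0.325 to 0.356), against 0.503 (0.497 to 0.51) for all other 34-nt reads (Fisher's exact test, adjusted p = 1.12e-62 over 23 comparisons of this kind). The Gly family had 2171 and 617 reads (0.28, 0.256 to 0.306) and the Lys family 1849 and 755 (0.402, 0.369 to 0.438), both below the other 34-nt reads (Fisher's exact test, adjusted p = 2.60e-37 and 8.14e-06). When the 28S-type family was left out of the other reads, these lay at 0.443 for the Lys comparison, which then just passed (Fisher's exact test, adjusted p = 0.0372 over 14 such comparisons). By contrast the Ser 3′ family had 1273 and 971 reads, a ratio of 0.751 (0.69 to 0.817), and the 28S-type family 16994 and 11122, a ratio of 0.645 (0.629 to 0.66). Each of the Ser and 28S-type ratios was above that of the other reads of the length (Fisher's exact test, adjusted p = 1.46e-23 and 9.96e-151).

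At 40 nt the Asp and Glu 3′ fragments lay above the other reads and the 28S type below. The Asp 3′ family had 8505 WT and 1887 KO reads of 40 nt, a ratio of 0.219 (0.208 to 0.23) against 0.116 (0.112 to 0.12) for all others (Fisher's exact test, adjusted p = 3.11e-86). The Glu 3′ family had 1009 and 209, a ratio of 0.204 (0.175 to 0.237). The 28S-type family, with 3742 and 376 reads of 40 nt, was below the others at 0.099 (0.0888 to 0.11; Fisher's exact test, adjusted p = 9.59e-12). Without the Asp family the other reads lay at 0.118, and the 28S-type family was still below them (Fisher's exact test, adjusted p = 0.00271). All long reads ending in CCA had higher ratios than the other reads of their length at 34, 36, 38 and 40 nt, from 0.684 (0.638 to 0.732) against 0.482 at 34 nt to 0.212 (0.202 to 0.222) against 0.112 at 40 nt (Fisher's exact test, adjusted p from 1.09e-93 to 0.00619).

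To set length aside, the observed KO reads were divided by the number expected if each length had the KO/WT ratio of all long reads. This observed over expected value is 1 for long reads as a whole and is not a KO/WT ratio. Unmatched reads ending in CCA had an observed over expected value of 1.39 (1.35 to 1.42, counting error of the KO reads only). The Val, Gly and Lys 5′ families had 0.704 (0.678 to 0.732), 0.568 (0.528 to 0.61) and 0.835 (0.777 to 0.895), and the mt-Tv 3′ family 0.978 (0.87 to 1.1). The Val and Gly fragments were far more frequent below 34 nt, but not the Lys family, with 1210 WT and 702 KO reads of 24 to 33 nt and 1947 and 783 long ones. The Val family had 165187 WT and 80287 KO reads of 24 to 33 nt, a ratio of 0.479, and 7877 and 2698 long ones, and the Gly family 77624 and 38444 against 2855 and 765. The Asp 3′ family had 0 WT reads and 1 KO read of 24 to 33 nt with the same start, and 8603 and 1938 long ones. Shorter fragments that end in the same CCA have another start and so lie outside the family. This count therefore does not show how frequent shorter Asp 3′ fragments were.

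The T loop showed a base difference whose share had overlapping intervals in the libraries. In the Asp 3′ fragment, A22T (position 22 from the 5′ end of the fragment, the A of the capital motif) was read in 1042 of 7835 WT reads of the forms with any of the 4 bases there, or 13.3% (12.6 to 14.1), and in 237 of 1726 KO reads, or 13.7% (12.2 to 15.4; Fisher's exact test, p = 0.639). In the Ser 3′ fragment A16T was the more frequent form, with 671 of 965 WT reads, or 69.5% (66.6 to 72.4), and 543 of 763 KO reads, or 71.2% (67.9 to 74.3; Fisher's exact test, p = 0.491). The genomic form of the latter, with A in capitals at position 16, had 180 WT and 117 KO reads.
Ser, genomic form: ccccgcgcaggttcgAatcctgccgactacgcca
In the Glu 3′ fragment A22T was read in 1 of 945 WT reads and in 0 of 189 KO reads. This A carries a methyl group in many tRNAs, which is known to cause misreading by reverse transcriptase. The T-carrying form of the Ser fragment is among the 10 most abundant long sequences of KO and not of WT.

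Mitochondrial tRNA was also found with its added CCA. The 3′ fragment of mt-Tv (chrM:1025-1093, plus strand) covers bases 35 to 69 of the 69-nt tRNA, and sequences that end the tRNA and carry CCA had 1290 WT and 277 KO reads, a ratio of 0.212 (0.185 to 0.241), against 5 and 4 reads inside the tRNA without it. At 38 nt the family shown above had a ratio of 0.197 (0.17 to 0.227), and the difference from the other 38-nt reads did not pass the test (0.221, 0.215 to 0.228; Fisher's exact test, adjusted p = 0.122). The mitochondrial methionine tRNA mt-Tm had 183 and 74 such reads (0.398, 0.3 to 0.525) and the glycine tRNA mt-Tg 156 and 37 (0.234, 0.159 to 0.336). mt-Tq, the glutamine tRNA (chrM:3772-3842, minus strand), gave mainly reads without CCA, 135 in WT and 38 in KO, against 3 and 4 with it. Its 36-nt sequence begins at the first base of the tRNA and had 63 and 17 reads.
mt-Tq, 5′ fragment: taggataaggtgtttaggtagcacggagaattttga
Reads without CCA also prevailed in mt-Tl1, 20 and 4 against 4 and 1 with it, and in mt-Ts2, 13 and 4 against 3 and 1.

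Long snoRNA reads were dominated by 1 gene, whose reads began at the annotated start. Gm26202 had 9092 WT and 1063 KO reads, 49.8% and 27.4% of the class, and nearly all of them in a 40-nt sequence from base 1 to 40 of its 65 nt, which had 8755 and 1012 reads. Its ratio at 40 nt, 0.114 (0.107 to 0.122), lay below that of the other 40-nt reads, 0.147 (0.143 to 0.152; Fisher's exact test, adjusted p = 3.65e-12). Without the Asp 3′ family the other reads lay at 0.117 (0.112 to 0.122), and the difference no longer passed (Fisher's exact test, adjusted p = 0.565). Without this gene the class ratio was 0.303 (0.291 to 0.316), with an observed over expected value of 1.04 (1 to 1.08), and its share with first-position T fell from 66.6% to 33.6% in WT. Gm22744 (chr19:8725092-8725156) followed with 980 and 238 reads, and Snord52 (chr17:34950952-34951017), a C/D box snoRNA, with 697 and 327, of which its sequence shown here had 668 and 313.
Snord52, bases 1 to 35 of 66: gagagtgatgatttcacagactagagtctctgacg
1110038B12Rik, the host gene: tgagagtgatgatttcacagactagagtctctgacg
Gm22744, bases 25 to 62 of 65: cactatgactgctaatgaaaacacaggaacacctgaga
The long noncoding class was led by the second of these sequences, 756 WT and 320 KO reads (0.417, 0.365 to 0.476), which is the Snord52 fragment with 1 more base at its 5′ end and so matches only 1110038B12Rik (chr17:34950238-34952471).

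Of the C/D snoRNAs by symbol, a list of 98 genes, 76 had long reads and 31 had at least 20. The KO/WT ratio was at least 2-fold lower in 29 of the 31 and 2-fold higher in 0, with a median of 0.233, from 0.0379 in Snord37 (26 and 1 reads) to 1.09 in Snord55. Of all genes with at least 20 long sense reads, 91.3% were at least 2-fold lower, and of all genes with at least 20 sense reads of 16 to 48 nt, 50.6%. Snord12 had 398 and 94 reads, Snord33 317 and 74, Snord80 180 and 20 and Snord68 166 and 12. Snord55 (chr4:117155770-117155848) owed its ratio to 1 sequence, bases 2 to 48 of 79, with 0 WT and 50 KO reads, at least 16.4-fold higher in KO against a floor of 3 WT reads.
Snord55, KO only: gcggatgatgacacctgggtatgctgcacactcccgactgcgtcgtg
The other long sequences of Snord55 had 75 WT and 33 KO reads, a ratio of 0.433 (0.279 to 0.661). Without that sequence the ratio of snoRNA reads of 47 and 48 nt was 0.41 (0.247 to 0.665) in place of 1.23 (0.865 to 1.76). H/ACA box snoRNAs, another guide class, had 48 and 26 long reads, a ratio of 0.534 (0.318 to 0.877), and 68.8% and 57.7% of these reads ended within 2 nt of the annotated end.

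The positions in structural RNAs differed by class. Among the exact matches to mitochondrial tRNA, which leave out all reads with CCA and so most of its 3′ fragments, 79.2% in WT and 80.7% in KO began within 2 nt of the annotated start. In snoRNAs this share was 65.2% and 54.0%, or 30.8% and 36.8% without Gm26202, and in snRNAs it was 0.377% and 0.926%. Of the reads from snRNAs, the RNAs of the spliceosome, 43.8% in WT (37.9 to 49.8) and 30.6% in KO (22.7 to 39.8) ended within 2 nt of the annotated end. Within 5 nt these shares were 66.4% and 74.1%, so which library is higher turns with the tolerance. Their leading genes were copies of U2 (Gm23444 at chr11:83271498-83271688 and Gm23472 at chr1:72236946-72237136, with 76 and 43 reads shared between them, and Gm24950, with 74 and 44), and the top sequence covers bases 155 to 188 of 191.
U2-type snRNA: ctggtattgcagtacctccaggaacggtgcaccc
It had 16 WT and 14 KO reads, a ratio of 0.862 (0.39 to 1.88). Mitochondrial 16S ribosomal RNA, mt-Rnr2, began exactly at its first base in 131 WT but 13 KO reads, a ratio of 0.0977 (0.0507 to 0.173), whereas its other sense reads numbered 125 and 38, a ratio of 0.299 (0.203 to 0.434). Their observed over expected values, 0.553 (0.294 to 0.946) and 0.948 (0.671 to 1.3), had overlapping intervals. The 12S RNA mt-Rnr1 gave 17 and 4 reads.

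Cytoplasmic ribosomal RNA was read over most of the length of Gm42418, a transcript that overlaps the 18S RNA. Gm42418 (chr17:39846958-39848788) had 9734 WT and 3244 KO reads in 2708 sequences, a ratio of 0.328 (0.315 to 0.342), and its reads covered 90.7% of 1831 nt from 779 starts, the most used of which held 3.28% of the WT reads. The sequence with most reads had 93 in WT and 31 in KO.
Gm42418, bases 231 to 267: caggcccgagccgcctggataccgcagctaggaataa
The 5S RNA genes, among them Rn5s (chr8:123598158-123598276), shared 441 and 115 reads (0.257, 0.207 to 0.316) over the whole 119 nt. The observed over expected value of the class was 1.17 (1.13 to 1.21), and its KO/WT ratio after this standardization for length was 0.355.

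Chains of overlapping sequences joined these ribosomal RNA reads with unmatched reads and with genes that led other classes. When sequences sharing 24 nt were joined, 42319 of the 87180 fell into 1 group with 65.3% of the WT and 68.8% of the KO long reads. This group held 93.3% of the WT ribosomal RNA reads, 72.5% of the unmatched reads and 56.4% of the miRNA-hairpin reads. It also held all 6926 WT and 1970 KO reads of Lars2 (chr9:123366927-123462666), a mitochondrial leucyl-tRNA synthetase gene and the leading protein-coding gene with 40.6% and 45.1% of its class. The Lars2 reads covered 386 of 3894 nt of the transcript. Mir6236 (chr9:110281287-110281409), with 453 and 138 reads the leading hairpin, lay wholly in the group, and the next hairpins, Gm23935, Gm24270 and Gm24245, shared 136 and 44 reads. Less of CT010467.1, 29.8% of its WT reads, lay in the group. CT010467.1 (chr17:39846353-39848827), an annotated ribosomal RNA on the strand opposite to Gm42418, held 62.4% and 73.0% of the antisense class with 2806 and 933 reads. Gm42863 with 258 and 75 and Gm26905 with 232 and 67 followed, with 0 reads specific to either. Reads antisense to CT010467.1 run in the direction of Gm42418, so most of the antisense class has the strand of the 18S transcript. The extent of the group rests on sequences read once. With sequences of at least 2 reads the largest group held 22.1% of WT and 27.5% of KO reads, all of them unmatched, and another group held 62.6% of the WT protein-coding reads beside unmatched ones. At this minimum the groups with most protein-coding and most hairpin reads held 0 reads of the ribosomal RNA class, so the link to that class was lost. They held 17273 and 24226 unmatched WT reads. No 28S reference was used, so any 28S reads there would count as unmatched. The 0 therefore cannot show whether these groups hold ribosomal RNA.

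Outside these RNAs, reads assigned to protein-coding genes were lower in KO than their lengths alone gave. Without Lars2 the class had 10149 WT and 2395 KO reads, a ratio of 0.232 (0.222 to 0.243), with an observed over expected value of 0.8 (0.768 to 0.833). Much of the low value came from sequences that also matched another class. With only sequences matching 1 class, Lars2 included, the ratio was 0.29 (0.278 to 0.304). It was 0.252 for the whole class and 0.304 for all long reads. At 34, 36, 38 and 40 nt the whole class lay below the other reads of the length, for example at 38 nt with 0.152 (0.135 to 0.172) against 0.226 (Fisher's exact test, adjusted p = 1.60e-10). At 34 nt without the 28S-type family and at 40 nt without the Asp 3′ family this no longer passed (Fisher's exact test, adjusted p = 0.118 and 0.0951). D10Wsu102e (chr10:83360221-83488505) had 1301 and 274 reads (0.207, 0.181 to 0.236) and Slc38a6 (chr12:73286779-73354049), an amino acid transporter gene, 976 and 171 (0.173, 0.146 to 0.203). Few reads of either were specific to it, 178 and 48 for D10Wsu102e and 7 and 2 for Slc38a6. Among the long noncoding RNAs, Gm47164 (chr10:103207748-103213437) had 456 and 62 reads (0.134, 0.101 to 0.175) and Gm37158 on the Y chromosome 411 and 54 (0.129, 0.0956 to 0.172), also hardly specific. The pseudogenes with most reads, Gm47654, Gm48216 and Gm48111, had 45 and 3, 44 and 3 and 33 and 8, with 0 reads specific to any of them. Mitochondrial mRNAs were rarely read, with mt-Nd6 at 12 and 1, mt-Co1 at 6 and 4 and mt-Nd5 at 5 and 1.

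Reads that matched 10 or more genes outside the structural classes, as copies of repeats do, were 3864 in WT and 622 in KO, 1.22% and 0.636% of the long reads. Their ratio was 0.159 (0.145 to 0.173), with an observed over expected value of 0.564 (0.521 to 0.61). First-position T made up 47.2% in WT (45.6 to 48.8) and 55.9% in KO (52 to 59.8), compared with 69.4% and 69.9% at 24 to 33 nt. A at position 10, the mark of secondary piRNAs, was found in 51.1% (49.5 to 52.6) and 56.1% (52.2 to 60), compared with 49.6% and 47.8% at 24 to 33 nt. Of the repeat-type long reads, 70.1% in WT and 68.5% in KO shared their 5′ end with a sequence of 24 to 33 nt that was at least as abundant.

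Long RNAs as a whole did not have the first base of piRNAs. C came first in 43.9% of the long reads in WT (43.8 to 44.1) and 49.1% in KO (48.8 to 49.4), and T in 22.3% (22.1 to 22.4) and 18.7% (18.4 to 18.9), whereas T was first in 46.5% and 45.4% of the reads of 24 to 33 nt. In protein-coding genes T was first in 37.6% and 37.9% of the long reads, against 66.0% and 63.2% at 24 to 33 nt, and in miRNA hairpins in 21.2% and 15.6%, against 84.4% and 85.7%. Of the long hairpin reads Mir6236 held 43.3% in WT and 44.8% in KO, and Snord43, annotated as a miRNA gene, 9.47% and 8.12%. Without Mir6236 T was first in 29.2% and 24.7% of them. Whether the same genes lead the hairpin class at 24 to 33 nt was not tested. Long noncoding RNAs had 51.8% and 64.3%, against 66.9% and 66.2%, and the KO difference did not pass the test (Fisher's exact test, adjusted p = 0.26), though it did with each distinct sequence counted once (odds ratio 0.568). snoRNAs went the other way, with T in 66.6% and 50.8% against 38% and 40.5%, and so did mitochondrial tRNA, with 67.9% and 70.2% against 4.34% and 4%. When each distinct sequence was counted once, the rises in snoRNAs and mitochondrial tRNA did not pass the test in either library.

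Many long RNAs extended a shorter one. A share of 52.9% in WT (52.7 to 53.1) and 59.0% in KO (58.7 to 59.3) began with a sequence of 24 to 33 nt that was read at least as often in the same library. The share was 80.4% and 84.8% in ribosomal RNA and 55.0% and 60.5% without a match, compared with 43.5% and 50.4% in all matched reads (Fisher's exact test between unmatched and matched reads in KO, p = 1.74e-113; smaller in WT). This order rests on the snoRNAs and turned without them, when the matched reads had 62.8% and 66.2% (Fisher's exact test, p = 1.26e-185 in WT and 3.40e-30 in KO). The share was lowest in snoRNAs, at 2.98% (2.74 to 3.24) and 7.26% (6.49 to 8.12). When any shorter sequence with the same start was allowed, 75.0% and 64.5% of the snoRNA reads had one.

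Single sequences followed the same course. Among all sequences of 11 to 48 nt with 100 or more reads summed over WT and KO, 8.7% were at least 2-fold lower in KO and 0.366% at least 2-fold higher. Of the 378 long ones, 322 were at least 2-fold lower and 0 at least 2-fold higher, with a median ratio of 0.357, compared with 412 lower and 7 higher of 2699 at 24 to 33 nt, with a median of 0.785. The 47 long sequences with a match had a median of 0.349 and the 331 without one 0.36.

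The remaining lists held few long reads. Replication-dependent histone genes, which package DNA and lack poly(A) tails, had 97 WT and 41 KO reads over 62 of 100 genes, a ratio of 0.416 (0.282 to 0.606). The ribosomal protein genes had 114 and 46 reads over 62 genes (0.397, 0.276 to 0.564), and 1 gene of each list reached 20 reads. The genes with Rnu symbols, which beside spliceosomal RNAs hold the nucleolar U3 and the histone-processing U7 RNA, had 220 and 96 reads (0.43, 0.335 to 0.549), and 4 of the 10 with at least 20 reads were at least 2-fold lower. Without the U3 genes they had 171 and 67 reads (0.386, 0.286 to 0.515), and 4 of 5 were lower. Of all genes with at least 20 long sense reads, 91.3% were at least 2-fold lower. Reads shared by copies of an RNA count for each copy, so these genes are not independent. The RNase MRP RNA Rmrp had 223 and 42 reads in the long noncoding class, 7SK RNA (Rn7sk) 18 and 3, and the Y RNAs Rny1 and Rny3 together 12 and 11, a ratio of 0.903 (0.361 to 2.24). Vault RNA (Vaultrc5) had 5 and 0.

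The 7SL RNA of the signal recognition particle, from Rn7s1 and Rn7s2, had 34 WT and 8 KO long reads within its 300 nt, while a larger number ended with an A beyond the annotated end. The count within the 300 nt leaves out reads assigned to Gm47295 and Gm47299. These annotated miRNA genes overlap the 3′ ends of Rn7s1 and Rn7s2, and the class order puts hairpins before 7SL. Each of them had 45 WT and 23 KO reads (0.503, 0.291 to 0.85), with 0 specific to it. The 34-nt sequence from base 268 to 300 with 1 added A had 70 WT and 76 KO reads, a ratio of 1.07 (0.763 to 1.5), compared with 0.487 for all 34-nt reads. The form beginning at base 265, of 37 nt, had 82 and 30 reads (0.36, 0.229 to 0.554), and that beginning at base 263, of 39 nt, 28 and 3 (0.106, 0.0205 to 0.342). These sequences were singled out after their values were seen. 7SL RNA is known to end in a single added A, and whether the genome holds an A at this place was not tested.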

How the data were processed

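The deposited tables give, per library, the raw read counts of all distinct sequences of 11 to 48 nt after the authors had clipped adaptors. They were neither mapped nor normalized. The members, lists and tests were chosen with earlier results of these data known. Exact matches in either strand were sought for sequences of 16 nt or longer in 141767 GENCODE M21 transcripts (GRCm38), which gave each sequence 1 of 13 classes in a fixed order, sense before antisense. tRNA genes and gene positions came from RefSeq (GRCm38) and GENCODE. References for 28S ribosomal RNA, most tRNAs, microbes or the sequencing control were not used here, so such reads were not removed. Counts were normalized to miRNA-hairpin reads (3 reads are 4.68e-05% of WT and 5.37e-05% of KO reads). Ratios have exact conditional binomial intervals and shares Wilson intervals at 95%. PCR copies are not told apart, so all intervals cover counting error only. Fisher's exact tests were two-sided. The named genes are the 3 leading genes of each class, the most abundant sequences of each library and class, the 5 leading unmatched families (1 of them not reported here), list members and the Hsp90 genes; further families, tRNAs, Snord55 and 7SL were added after their values were seen, as were length standardization, overlap groups, the both-strand set and the comparisons without 1 family, snoRNAs or U3 genes. No model across replicates was fitted. The steps were tested on simulated data, where 95.2% of intervals for long sequences held the true ratio and 97.6% of 1200 sequences got their class back. Alternatives covered the normalizing total, read minimum, distinct sequences, lengths, trimming of 3 nt and single sequences. Analyses ran in Python 3.11.15 with scipy 1.17.1, numba 0.67.0, pandas 2.3.3 and numpy 2.4.6.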

Additional observations from a re-analysis of the deposited data

How the results depend on the processing

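The overall ratio and the 13 class ratios stayed below 1 and past the threshold under all 130 alternatives computed for them, and so did the 15 ratios by length under 30. The overall ratio ranged from 0.274 without the largest overlap group to 0.416 with each distinct sequence counted once, and was 0.31 without sequences found on both strands. Standardizing for length moved the class ratios to between 0.203 and 0.393. The odds of a class in KO over WT turned for miRNA hairpins to 1.26 after 3 nt were removed and for mitochondrial mRNA to 0.796, and with distinct sequences for mitochondrial ribosomal RNA to 1.04, mitochondrial tRNA to 1.1 and snoRNAs to 1.37. The odds of first-position T against 24 to 33 nt in mitochondrial ribosomal RNA turned with distinct sequences to 0.73 in WT and 0.955 in KO. The odds of sharing a 5′ end without against with a match turned to 0.722 in WT and 0.782 in KO without snoRNAs. The ratio of rRNA over other 40-nt reads turned to 1.06 without the Asp 3′ family, neither value passing. The cause was not tested. Structural RNA reads at the annotated start were 55.0% in WT and 39.9% in KO exactly at it and 65.2% and 54.1% within 5 nt, and those at the annotated end 4.53% and 5.33%, and 26.2% and 35.4%. Of the long sequences with at least 20 reads, 1933 of 2378 were at least 2-fold lower and 2 higher, and with at least 500 reads 26 of 31 lower. The ratio of Y RNAs to total reads was 1.05. No paired analysis was possible because each genotype has 1 library, which also means that no library could be left out. Depth limits the classes under about 300 reads, whose intervals are wide, and the lengths of 44 nt and above, which have few KO reads.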
